A study of Mus musculus with 24 samples.

Results

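The heat response of mouse embryonic fibroblasts without CHIP was compared between an early and a late time. It was measured on 12 of the 24 arrays of the study, those of the CHIP null cells, with 3 arrays in each of 4 groups. The fibroblasts came from embryos at day 13.5, bred on C57BL6 from parents with 1 working copy of the gene, and grew in medium with β-mercaptoethanol. The 4 groups were CHIP(-/-) cells kept at 37 °C or heated to 43 °C, with labels of 30 min or 240 min for the controls and for the heated cells alike, and the labels speak of biological replicates without naming embryos or cultures. The other 12 arrays hold wildtype CHIP(+/+) cells under the same 4 conditions and served as the comparison. Each array measured 500 ng of sample RNA, labelled with Cy5, against a common reference RNA pooled from mouse cells and labelled with Cy3. A level below is therefore a log2 ratio of Cy5 over Cy3. A heat effect is the mean level of the heated arrays minus that of the controls of the same time, and the late difference of a gene is its heat effect at 240 min minus its heat effect at 30 min.

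Heat makes proteins unfold, and cells answer by making chaperones, the proteins that refold them. The transcription factor HSF1 binds heat shock elements, runs of the unit GAA in alternating orientation, and switches on genes of the HSP70, HSP90 and HSP40 families. At the same time the transcription of many other genes and the splicing of their transcripts slow down, so that unstable messages disappear. CHIP is the product of Stub1, a co-chaperone and ubiquitin ligase that binds HSP70 and HSP90, marks their unfolded clients for degradation, and is known to take part in HSF1 activation. DAXX is a nuclear protein that acts with p53 and with stress kinases.

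Promoter stretches of 4 of the genes described are shown with heat shock element letters, GAANNTTC or TTCNNGAA, in capitals; they were chosen because they hold a match. The capitals mark a short form of the element. A longer form, with 3 units in a row, had 0 matches in the promoters of Hspa1a, Hspa1b, Hsph1 and Ccn1. The 250 bases before the start of Rsrp1, Mad2l1, Nr4a1 and Klf4 held 0 matches to either form. Each line runs 5′ to 3′ on the gene's own strand, is taken from RefSeq promoters of build GRCm38.p6, and ends before the start site. These are the genes for HSP70 (Hspa1a and its copy Hspa1b), for HSP110 (Hsph1, from the first promoter in the table) and for the matrix protein CCN1, an early response gene that went the other way.
Hspa1a: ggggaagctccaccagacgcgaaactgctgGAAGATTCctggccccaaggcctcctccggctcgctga
Hspa1b: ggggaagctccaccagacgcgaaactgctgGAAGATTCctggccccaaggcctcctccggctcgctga
Hsph1: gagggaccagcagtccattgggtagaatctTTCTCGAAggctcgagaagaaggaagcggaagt
Ccn1: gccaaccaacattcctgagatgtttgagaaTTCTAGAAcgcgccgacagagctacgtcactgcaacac
The stretches lie on the minus strand at chr17:34972223-34972290, chr17:34959305-34959372, chr5:149636337-149636399 and chr3:145650030-145650097. The Hspa1a and Hspa1b lines are the same letter for letter, and over the 250 bases before the start 247 are identical. Either motif, which reads the same on both strands, was present in 17.0% of the 27025 genes with a promoter of 300 bases and in 13.8% of the 9633 tested genes with one. It was present in 18% of the 100 promoters of genes called higher late, in 14% of the 114 promoters of genes called lower late, and in 12 of 30 promoters of the chaperone list (40.0%). A match, or none, describes the letters in this window only.

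Times in the text are those on the labels of the scanner files. The authors' value table carries the opposite labels: all 12 of its CHIP null columns matched the scanner file of the other time, and with its own labels each late difference taken from that table has the opposite sign of the same value under the scanner labels. Of 316 called genes that the table could test, 4 had the sign given here under the table's labels. The sources used here do not say which is right. The arrays labelled 30 min and 240 min were also scanned as separate sets, and the levels of the controls themselves differed between the labels for 6554 of 13480 genes (48.6%), so each heat effect was taken within its own time. No slide held all 4 groups: the slide that joins groups at 30 min holds 1 heated array and 3 controls, and that at 240 min 3 heated arrays and 1 control. The share of probes with a Cy5 signal well above background was 40.5% ± 1.4 (SD, n = 3) in the 30 min controls and 34.6% ± 1.9 after heat, against 47.7% ± 1.1 and 44.5% ± 0.42 at 240 min. Replicate arrays correlated at 0.968 to 0.987 over probes, and 0 pairs were identical. Heated replicate 1 of each time deviated most from the other arrays of its group, with an SD over genes of 0.149 at 30 min and 0.166 at 240 min. Of 15 fibroblast markers, 14 or 15 were well above background on all 3 arrays of each group. Stub1, the deleted gene, read -2.12, -1.94 and -2.04 in the 30 min controls and -2.43, -2.14 and -2.33 in those of 240 min, and after heat -1.73, -1.72 and -1.92, then -2.27, -2.02 and -2.07. In the wildtype its group means lay between -0.22 and -0.05, above every CHIP null array, and its late difference in the CHIP null of -0.07 was not called.

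Heat moved many genes at each time, and for a small share the movement differed between the times. At 30 min 4746 genes were called (35.2%), 3046 higher (22.6%) and 1700 lower (12.6%), and at 240 min 5256 (39%), 3294 higher (24.4%) and 1962 lower (14.6%). The late difference was called for 318 of 13480 genes (2.36%) at an adjusted p of 0.05 in limma with Benjamini-Hochberg adjustment, 144 higher (1.07%) and 174 lower (1.29%). Most of these differences were small, with a median size of 0.40 on the log2 scale, and 2436 genes (18.1%) had an unadjusted p under 0.05. Of the called genes 27 (0.2% of those tested) exceeded 1.5-fold, 8 higher and 19 lower. The split between higher and lower calls moved with the scaling, from 45.3% higher to 55.3% with the software's own ratios, 57.5% with a smaller offset in the background correction and 2 of 8 calls with median centring. Of the 144 genes higher late, 53 had fallen at 30 min and were not called at 240 min, 60 were not called at 30 min and had risen at 240 min, and 29 had fallen early and risen late. Of the 174 lower late, 86 were not called early and had fallen late, 53 had risen early and were not called late, 15 had risen early and fallen late, 13 had fallen at both times and 7 had risen at both. Over the 13392 genes with a value on all 12 arrays the heated arrays, each less its control mean, did not overlap between the times for 29.9%, with 240 min above for 16.2% and below for 13.7%.

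**Figure D1:**
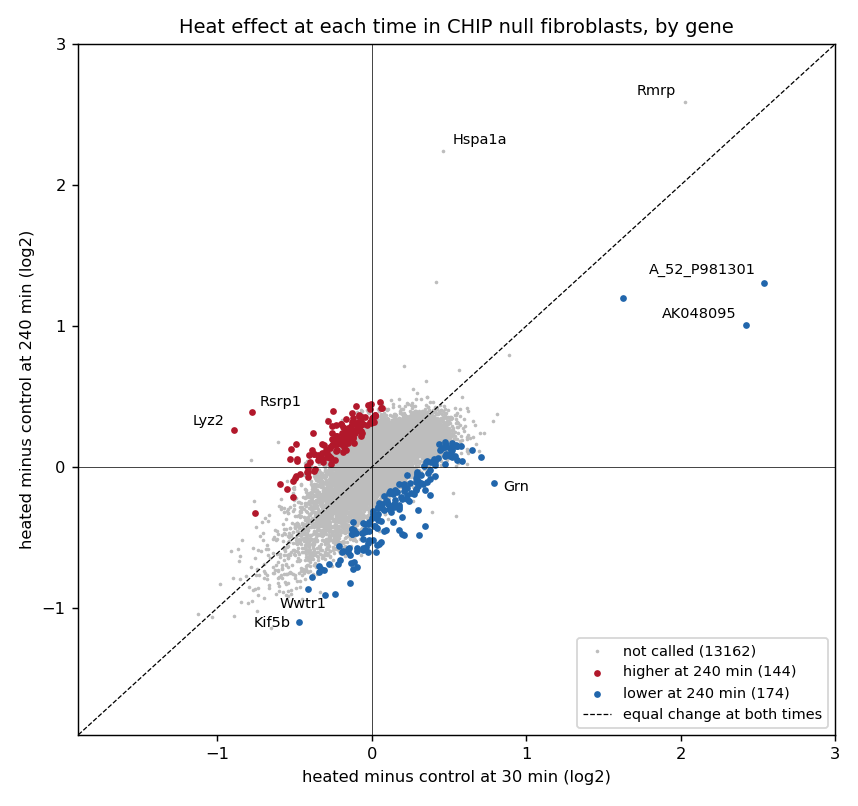
Heat effect of each of 13480 genes at 30 min (x axis) and 240 min (y axis), heated minus control on the log2 scale, 3 arrays a group in the CHIP null. Called genes lie on both sides of the dashed line of equal change, 144 above and 174 below, and most differ from it by less than 1.5-fold; AK048095 and A_52_P981301 rose by more than 2 at 30 min and stayed well above 0 at 240 min.

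The number of calls rested on single arrays and on the processing. Under the scanner labels the called genes rarely changed direction in refits of the same arrays. Without heated replicate 1 of 240 min it was 840, and without heated replicate 2 of that time 76. It was 507 without heated replicate 1 of 30 min, 95 without heated replicate 2, 110 without control replicate 3 and 191 without control replicate 1 of that time, and 109 and 206 without control replicate 2 and heated replicate 3 of 240 min. With slide as a block 24 genes were called, and with arrays centred on their median 8. In the fits on scanner intensities all called genes that could be tested kept their sign, and 314 of 318 did so with the software's own ratios, where 69 were still called. The fit with brightness scaled between arrays, the changes of background filter and the fit on the CHIP null arrays alone leave every estimate as it was. The others reuse the same arrays, so kept signs are no independent check. Of the 61 called genes that the naming rule gave, 9 of the 59 that could be fitted were still called with slide as a block: Rsrp1, Lyz2, Hnrnph2, Mad2l1, Hsp90aa1, AK048095, A_52_P981301, H1f5 and Plpp3. All 59 kept their sign there. That fit takes the early heat effect from heated replicate 1 alone, the array that deviated most at 30 min. It sets the late heated arrays against control replicate 3 of 240 min alone. Kept calls and signs there re-read part of the same arrays and are no test of slide. Calls also grew with brightness, from 27 of the 3370 dimmest genes (0.801%) to 147 of the 3370 brightest (4.36%).

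Among all tested genes Hspa1a, the inducible HSP70, had the largest estimated late rise. The brightest of the 4 Hspa1a probes read -0.53, -0.57 and -0.57 in the 30 min controls and -0.51, -0.06 and 0.28 after heat. At 240 min it read -0.79, -0.70 and -0.76 in the controls, and 2.21 and 0.78 on 2 late heated arrays. Its value on the other, heated replicate 1, was left out as a flagged outlier. On the 3 other probes that array read 2.76, 2.21 and 3.92, the highest of its group. On the brightest probe both late heated arrays with a value lay above the other 9, and differed from each other by more than 1 on the log2 scale. The heat effect of this probe was 0.46 (SE 0.38, not called) at 30 min and 2.24 (SE 0.42, adjusted p = 0.00026, limma) at 240 min. Its late difference of 1.78 (SE 0.57, adjusted p = 0.088, limma) missed the threshold. It lay between 1.07 and 2.49 when single arrays were left out, with the lowest value without late heated replicate 2. With slide as a block it was 2.21, from early heated replicate 1 alone and control replicate 3 of 240 min alone. That early array gave a heat effect of 0.05, against 0.50 and 0.84 on the others. The 3 other probes had a value on all 12 arrays and were called in a limma fit of all probes, in which 0.925% of 19346 probes were called higher and 0.998% lower. Their late differences were 1.93 (SE 0.44, adjusted p = 0.024), 1.20 (SE 0.23, adjusted p = 0.0097) and 2.56 (SE 0.66, adjusted p = 0.041). On the probe with the widest range the late heated arrays read 3.92, 2.09 and 0.57, against -0.82, -0.74 and -0.78 in their controls. No probe carried the name of Hspa1b, so the levels of the 2 copies cannot be told apart.

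**Figure D2:**
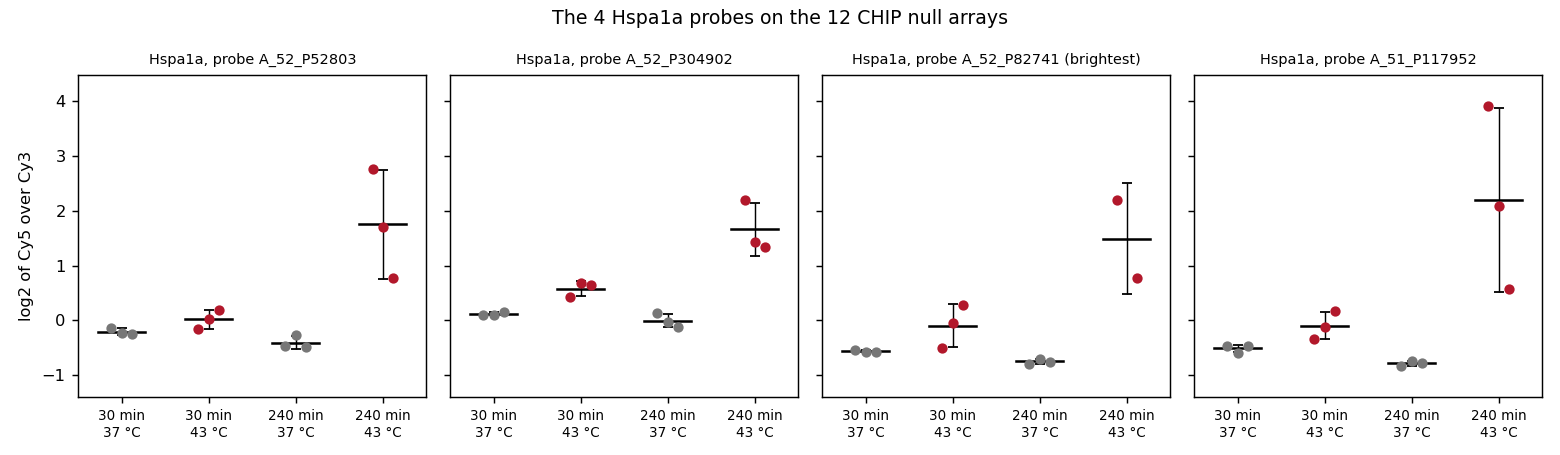
Level of Hspa1a (log2 of Cy5 over Cy3) on the CHIP null arrays, 1 panel for each of its 4 probes, grey points for 37 °C and red for 43 °C, with the mean (line) and SD (bar) of the 3 arrays a group (2 where 1 value was missing). The heated arrays of 240 min lie above all others on each probe, by amounts that differ between arrays.

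On the list of cytosolic chaperones and HSF1 targets 37 of 39 genes were tested. Of these 3 were called higher late (8.11%, against 1.07% of all genes) and 0 lower (against 1.29%). An unadjusted p under 0.05 in limma was found for 9 of the 37, against 18.1% of all genes. The median late difference was 0.07, against 0.00 over all genes. At 30 min 9 of the 37 were called lower (against 12.6% of all genes) and 7 higher (against 22.6%). At 240 min 5 were called lower (against 14.6%) and 7 higher (against 24.4%). The 7 higher are no larger a share than that of all genes at either time. Besides Hspa1a the 6 called higher at 240 min rose by 0.14 to 0.40, and 0 of these 6 had a called late difference. Hsp90aa1, the inducible HSP90, read 1.28, 1.09 and 1.17 in the 30 min controls and 0.37, 0.86 and 0.86 after heat, with no overlap. At 240 min it read 1.36, 1.17 and 1.5, then 1.47, 1.36 and 1.32, which overlap. It thus fell by 0.48 at 30 min and its heat effect was 0.04 at 240 min, a late difference of 0.52 (SE 0.14, adjusted p = 0.038, limma). Hsph1, the HSP110 that reloads HSP70 with nucleotide, showed the same course. It read 1.06, 1.12 and 1.20 against 0.53, 0.64 and 0.81 at 30 min and 1.44, 1.49 and 1.45 against 1.52, 1.45 and 1.25 at 240 min, for a late difference of 0.42 (adjusted p = 0.03, limma). Dnajb4, an HSP40 partner of HSP70, fell by 0.51 at 30 min, had a heat effect of -0.10 at 240 min and a late difference of 0.41 (adjusted p = 0.043, limma). These 3 genes were lower after heat at 30 min and near their controls at 240 min. Dnaja1 and Dnajb1, 2 further HSP40 genes, had heat effects of -0.50 and -0.29 at 30 min, both called, and -0.22 and -0.19 at 240 min. Their late differences of 0.28 and 0.11 were not called. Of 24 alternatives that keep the time labels, including each array left out, Hsp90aa1 was called under 12, Hsph1 under 11 and Dnajb4 under 7. The 24 are not independent checks. Of them 12 leave out a single array, and the fit with brightness scaled between arrays repeats the main calls. The software's ratios and the authors' value table under scanner labels hold nearly the same values.

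Other genes of the list were higher after early heat. Hspa8, the constitutive HSP70, had heat effects of 0.25 (called) and -0.03, and the small heat shock protein gene Cryab 0.36 and 0.20 (both called), and neither late difference was called. Hsf1 had heat effects of 0.11 and 0.03, neither called, and a late difference of -0.08.

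The chaperonin CCT, a cytosolic folding chamber for actin and tubulin, and prefoldin, which delivers clients to it, were tested with all 14 genes. Their median late difference was 0.17, and 2 were called higher (against 1.07% of all genes) and 0 lower (against 1.29%). Vbp1, a prefoldin subunit, read 0.33, 0.22 and 0.51 against -0.16, -0.17 and -0.06 after heat at 30 min. It read 0.55, 0.28 and 0.49 against 0.61, 0.47 and 0.40 at 240 min. The arrays were separate at 30 min and overlapped at 240 min, and its late difference was 0.54 (SE 0.11, adjusted p = 0.013, limma), with 0.42 on its other probe. Cct6a, a subunit of the chamber, fell by 0.24 early, had a heat effect of 0.15 late and a late difference of 0.39. Of the 14 genes 6 were called lower (against 12.6% of all genes) and 3 higher (against 22.6%) at 30 min. At 240 min 0 were called lower (against 14.6%) and 3 higher (against 24.4%). The lists of mitochondrial chaperones (13 tested) and of endoplasmic reticulum chaperones and the unfolded protein response (22 tested) held 0 called genes in limma, with medians of 0.03 and -0.03, and 1 and 6 genes with an unadjusted p under 0.05. The list of heat shock factors and CHIP, with 3 tested, held 0 of either. Over all genes 2.36% were called and 18.1% had an unadjusted p under 0.05 in limma. Counts of 0 in lists of this size are therefore no result about them.

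Several genes of cell division were lower after early heat and at or above their controls after late heat. On the list of mitosis genes all 30 were tested. Of these 4 were called higher late (13.3%, against 1.07% of all genes) and 0 lower (against 1.29%). The median was 0.20, and 28 of 30 lay above 0. At 30 min 15 of the 30 were called lower (against 12.6% of all genes) and 0 higher (against 22.6%). At 240 min 7 were called lower (against 14.6%) and 6 higher (against 24.4%). Mad2l1, a protein of the spindle checkpoint, read 0.64, 0.77 and 0.84 in the 30 min controls and 0.38, 0.59 and 0.52 after heat. At 240 min it read 1.30, 1.09 and 1.25, then 1.49, 1.57 and 1.46. All heated arrays were below their controls early and above them late, and the late difference was 0.55 (SE 0.10, adjusted p = 0.0062, limma), with 0.58 on its other probe, which was also called in the fit of all probes. Kif20a, a kinesin of cytokinesis, read 1.89, 1.95 and 1.93 against 1.75, 1.75 and 1.74, and then 1.85, 1.65 and 1.77 against 2.0, 2.05 and 1.97. Its late difference was 0.43 (SE 0.08, adjusted p = 0.0062, limma), and it was called in the wildtype as well, at 0.42. Nusap1, which bundles spindle microtubules, fell by 0.15 early, rose by 0.17 late and had a late difference of 0.32. Ccnb1, the cyclin of mitotic entry, fell by 0.32 early and had a heat effect of 0.03 late. Mad2l1 and Kif20a were called under 21 and 22 of the 24 alternatives, which are not independent of each other.

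Further genes with roles in dividing cells were called higher late. Cep55, a protein of the midbody, read 1.06, 1.07 and 1.07 against 0.66, 0.55 and 0.40 after heat at 30 min. Its heat effect went from -0.53 to 0.06. Its other probe gave a late difference of -0.12, against 0.59 for the brightest. Zfp207, which binds spindle microtubules, had a late difference of 0.41 (0.44 on its other probe, also called), and its heated arrays lay below their controls early and above them late. Nemp1, a protein of the inner nuclear membrane, fell by 0.23 and rose by 0.30. On the list of DNA replication genes 1 of 25 was called higher (against 1.07% of all genes) and 0 lower (against 1.29%). A single call in a list of this size is no result about it. Of the 25 genes 24 lay above 0, and the median was 0.17. Pola1, the catalytic subunit of the polymerase that starts DNA chains, read 0.90, 0.75 and 0.87 against 0.38, 0.43 and 0.45 at 30 min and 0.99, 0.86 and 1.05 against 1.07, 0.94 and 0.90 at 240 min. It fell early with no overlap, its late values overlapped, and its late difference was 0.42 (adjusted p = 0.012, limma).

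**Figure D3:**
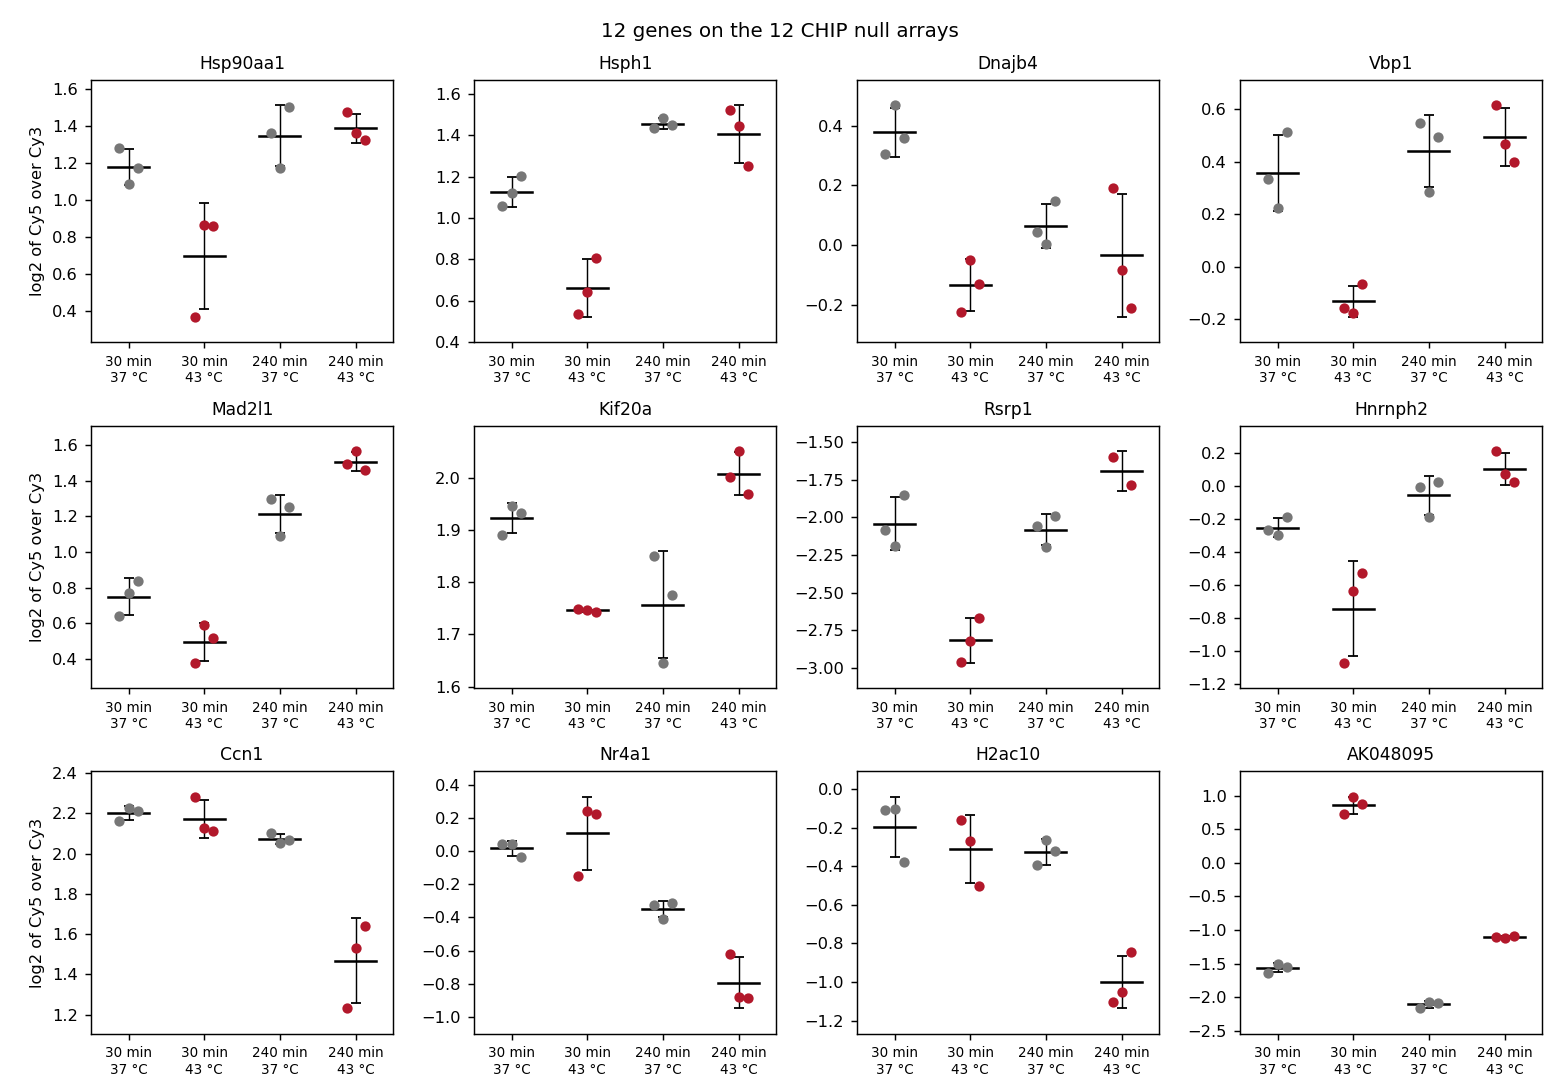
Level (log2 of Cy5 over Cy3) of 12 genes on the 12 CHIP null arrays, grey for 37 °C and red for 43 °C at each labelled time, with the mean (line) and SD (bar) of the arrays with a value; the y axis differs between panels. Hsp90aa1, Hsph1, Dnajb4 and Vbp1 drop after heat at 30 min and lie near their controls at 240 min. Mad2l1, Kif20a and Rsrp1 are below their controls early and above them late, and Ccn1 and H2ac10 drop after heat at 240 min.

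Small numbers of RNA processing and nucleolar genes were called higher late. Rsrp1, a protein rich in arginine and serine, was the called gene with the largest late rise. It read -2.08, -2.19 and -1.85 in the 30 min controls and -2.96, -2.82 and -2.67 after heat, then -2.06, -2.20 and -1.99 against -1.60 and -1.79 on 2 late heated arrays, with no value on the other. It fell by 0.78 early and rose by 0.39 late, a late difference of 1.17 (SE 0.14, adjusted p = 2.9e-05, limma), and it was called under all 24 alternatives that keep the time labels. Hnrnph2, an RNA-binding splicing regulator, read -0.27, -0.30 and -0.19 against -1.07, -0.63 and -0.52, and then 0.00, -0.19 and 0.03 against 0.21, 0.08 and 0.02. Its early values did not overlap, its late ones did, and the late difference was 0.65 (SE 0.13, adjusted p = 0.011, limma). On the list of splicing factors 2 of 28 were called higher (against 1.07% of all genes) and 0 lower (against 1.29%). These were Hnrnpm at 0.49 and Hnrnpa1 at 0.39, and the list had a median of 0.09. At 30 min 11 of the 28 were called lower (against 12.6% of all genes) and 1 higher (against 22.6%). On the list of nucleolar ribosome biogenesis 2 of 28 were called higher (against 1.07% of all genes) and 0 lower (against 1.29%). These were Nop16 at 0.39 and Polr1a, the largest subunit of RNA polymerase I, at 0.32. Both had no call at 30 min and a rise of 0.25 at 240 min. Rmrp, the RNA of the RNase MRP enzyme, rose strongly at both times, by 2.03 (SE 0.13) and 2.59 (SE 0.13). Its heated arrays read 2.78, 3.06 and 2.95 early and 2.83, 2.67 and 2.69 late, all above every control, and its late difference of 0.56 (adjusted p = 0.088, limma) was not called.

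Several further genes were called higher late. Pla2g4a, the cytosolic phospholipase that releases arachidonic acid, had a heat effect of -0.09 early and rose by 0.28 late, with a late difference of 0.37 on its brightest probe and 0.48 on the other, both called. A transcript that the files annotate as mitochondrial cytochrome c oxidase subunit II (ENSMUST00000082405) gave 0.62, and the unnamed features BC012020 and NAP030437-1 gave 0.61 and 0.65. Rab1a, a small GTPase of vesicle traffic, gave 0.65, but 1 of its 3 late heated arrays had a value and its other probe gave 0.02. LOC544881 was well above background on 0 of 3 heated arrays and 1 of 3 controls at 30 min, so its early heat effect, and with it its late difference, was not measured above background; late it rose by 0.43. NAP030437-1 was well above background on 1 of 3 heated arrays at 30 min.

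Early response genes, which growth factors and stress switch on within minutes and whose messages are short-lived, included several that were lower late. Of 42 on the list 38 were tested, and 6 were called lower late and 0 higher (15.8%, against 1.29% of all genes), with a median of -0.08. At 30 min 12 of the 38 were called lower (against 12.6% of all genes) and 3 higher (against 22.6%). At 240 min 22 were called lower (against 14.6%) and 1 higher (against 24.4%). Ccn1, a secreted matrix protein, read 2.16, 2.23 and 2.21 in the 30 min controls and 2.28, 2.13 and 2.11 after heat, which overlap. At 240 min it read 2.10, 2.05 and 2.07 against 1.23, 1.53 and 1.64, and all late heated arrays lay below the other 9. Its late difference was -0.58 (SE 0.13, adjusted p = 0.02, limma). Nr4a1, an orphan nuclear receptor, read 0.04, 0.04 and -0.03 against -0.15, 0.24 and 0.23 early and -0.33, -0.41 and -0.31 against -0.62, -0.88 and -0.89 late. It overlapped early and was separate late, with a late difference of -0.54 (SE 0.13, adjusted p = 0.027, limma). Klf4, a zinc finger transcription factor, had a heat effect of -0.14 early, fell by 0.68 late and had a late difference of -0.55. Ccn2, a matrix protein related to CCN1, had a heat effect of -0.13 early and fell by 0.48 late, with values on 2 late heated arrays.

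The remaining called genes of that list are regulators of decay and signalling. Zfp36l1, which directs messages with AU-rich elements to decay, read -1.55, -1.51 and -1.59 against -1.75, -1.05 and -1.22 early and -1.40, -1.46 and -1.33 against -1.59, -1.99 and -2.06 late. Its early heat effects were spread wide enough to overlap the late ones, and its late difference was -0.69 (SE 0.18, adjusted p = 0.039, limma), with -0.51 on its other probe, also called. Dusp6, the phosphatase of ERK kinases, fell at both times, by 0.34 and 0.74. Egr1 and Jun, transcription factors of the same class, had heat effects of -0.38 and -0.31 early and -0.27 and -0.39 late, all called, and their late differences were not called. Fos and Atf3 had heat effects of 0.12 and 0.31 early and 0.07 and 0.03 late, of which the early value of Atf3 was called. Of the 6 called genes of the list Ccn1 kept its call under 19 of the 24 alternatives, Nr4a1 under 13, Klf4 under 11, Dusp6 and Ccn2 under 7 each and Zfp36l1 under 6.

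Wwtr1, which encodes TAZ, a co-activator of the Hippo pathway for which Ccn1 and Ccn2 are known targets, was among the largest late falls. It read 0.37, 0.31 and 0.37 against 0.22, 0.12 and 0.01 at 30 min and 0.23, 0.41 and 0.21 against -0.40, -0.68 and -0.77 at 240 min. It fell at both times without overlap, by 0.24 and 0.90, and its late difference was -0.66 (SE 0.12, adjusted p = 0.0061, limma), against -0.11 on its other probe. Kif5b, a motor that carries cargo along microtubules, also fell at both times, by 0.47 and 1.10, with a late difference of -0.63. Its other probe gave -0.19, not called, and the call held under 4 of the 24 alternatives. Plpp3, a phosphatase of lipid signals at the cell surface, read -0.89, -0.95 and -0.95 against -0.20, -0.73 and -0.82, and then -1.70, -1.64 and -1.81 against -1.93, -2.20 and -2.28. All its heated arrays were above their controls early and below them late, a late difference of -0.77 (SE 0.15, adjusted p = 0.011, limma). Arid3a, a DNA-binding protein, and Zbtb43, a zinc finger protein, had heat effects of 0.18 and 0.00 early and fell by 0.45 and 0.36 late. Zbtb43 gave -0.41 on its other probe, which was also called. A transcript known in the files only as ENSMUST00000006203 had heat effects of 0.20 early and -0.47 late and a late difference of -0.67. Stard4, a carrier of cholesterol, had a heat effect of 0.03 early and fell by 0.60 late, but its 2 other probes gave late differences of 0.10 and 0.27.

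A second kind of late difference came from genes that rose early and were near their controls late. Cdkn1c, an inhibitor of cyclin-dependent kinases, read -3.15, -3.14 and -3.33 against -2.42, -2.44 and -2.66 early and -2.89, -2.78 and -2.95 against -2.91, -2.81 and -2.71 late. It rose by 0.71 early with no overlap and its late values overlapped, a late difference of -0.64 (SE 0.12, adjusted p = 0.0083, limma). Vps36, a part of the endosomal sorting machinery, rose by 0.38 early and had a heat effect of -0.02 late; both of its probes were called, at -0.40 and -0.43. Grn, the secreted growth factor progranulin, rose by 0.79 early and had a late difference of -0.91 on its brightest probe, against -0.10 on the other. Of the matrix genes 2 of 28 were called lower (against 1.29% of all genes) and 0 higher (against 1.07%). Fbln2, an elastic fibre protein, rose by 0.55 early and had a heat effect of 0.05 late. Col1a2, a chain of type I collagen, instead had heat effects of 0.23 early and -0.20 late, both called. Its late difference was -0.43, against 0.21 on its other probe. Inhba, a subunit of activin, and Vldlr, a lipoprotein receptor, rose by 0.28 and 0.32 early and had late differences of -0.44 and -0.43.

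Among called genes the steepest late differences belonged to transcripts without a gene symbol that were strongly raised at both times. AK048095, a cDNA that the files describe as unclassifiable, read -1.63, -1.50 and -1.55 in the 30 min controls and 0.73, 0.98 and 0.87 after heat. At 240 min it read -2.17, -2.07 and -2.09 against -1.11, -1.11 and -1.09. All heated arrays lay above all controls, and the early rise of 2.42 (5.36-fold) exceeded the late rise of 1.0, a late difference of -1.42 (SE 0.10, adjusted p = 2.5e-10, limma). Probe A_52_P981301, which the files leave without a name, read -0.92, -0.86 and -0.86 against 1.77, 1.63 and 1.59 early and -1.72, -1.62 and -1.62 against -0.40, -0.34 and -0.30 late. It rose by 2.54 and 1.31, a late difference of -1.23 (SE 0.10, adjusted p = 5.1e-09, limma). Both were called under all 24 alternatives that keep the time labels, and in the wildtype at -1.07 and -0.89. C5ar2, a receptor for the complement fragment C5a, was chosen after its values were seen: it rose by 1.62 early and 1.20 late, with a late difference of -0.43 (adjusted p = 0.040, limma).

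A few histone genes, whose messages lack a poly(A) tail when made in S phase, were lower late. Of 53 clustered histone genes 26 were tested. Of these 3 were called lower (11.5%, against 1.29% of all genes) and 0 higher (against 1.07%), and the median was -0.18. At 30 min 11 of the 26 were called higher (against 22.6% of all genes) and 0 lower (against 12.6%). At 240 min 6 were called higher (against 24.4%) and 5 lower (against 14.6%). H2ac10 read -0.11, -0.10 and -0.38 against -0.16, -0.27 and -0.50 early, which overlap, and -0.39, -0.26 and -0.32 against -1.10, -1.05 and -0.84 late, which do not. Its late difference was -0.56 (SE 0.14, adjusted p = 0.028, limma), with -0.47 on its other probe. H2ac15 had a heat effect of 0.02 early and fell by 0.42 late, and H1f5, a linker histone, rose by 0.30 and then fell by 0.48, a late difference of -0.78. A further feature that the files call similar to a histone 2a gene (MGC73635) had a late difference of -0.68. H2ac10, H2ac15, H1f5 and MGC73635 were called lower in the wildtype too, at -0.67, -0.49, -0.80 and -0.89. Copies of a histone gene are alike enough that a probe may read more than one of them.

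For ribosomal protein genes the value depended on the scaling. Of 69 tested, 65 were called higher at 30 min (against 22.6% of all genes) and 23 at 240 min (against 24.4%). In the late difference 3 were called lower (4.35%, against 1.29% of all genes) and 0 higher (against 1.07%). These were Rpl39 at -0.54, Rps24 at -0.40 and Rpl37 at -0.32, and the list had a median of -0.23. The other probes of Rps24 gave 0.13 and 0.02 and that of Rpl37 gave 0.03, none of them called. All 69 are among the 3370 brightest genes, where the others had a median of -0.02. The list's median was -0.12 with a smaller offset in the background correction, -0.02 with median centring and 0.00 with the software's ratios, so its size and direction rest on how the arrays were scaled.

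The p53 targets stood near the background of the contrast. Of 18 tested targets in apoptosis and 20 in arrest, repair and feedback 0 were called in limma, with medians of 0.00 and -0.07, and 3 and 6 of them had an unadjusted p under 0.05. Over all genes 2.36% were called and 18.1% had an unadjusted p under 0.05, so a count of 0 in lists of this size is no result about them. Trp53, the p53 gene, rose by 0.25 at 30 min and 0.18 at 240 min, with a late difference of -0.08. Cdkn1a, the p53 target that stops the cell cycle, rose by 0.25 and 0.22, Mdm2, the ligase that degrades p53, fell by 0.47 and 0.54, and Pmaip1, which encodes the death protein NOXA, fell by 0.70 and 0.52. Daxx had heat effects of 0.01 and -0.04, neither called. On the list around DAXX, the HIPK kinases and the ASK1 to JNK pathway 1 of 20 was called: Trp53bp2, whose product ASPP2 binds p53, read -0.48, -0.39 and -0.44 against -0.34, -0.33 and -0.28 early and -0.45, -0.27 and -0.41 against -0.59, -0.73 and -0.76 late. It was above its controls early and below them late, with a late difference of -0.44 (SE 0.09, adjusted p = 0.013, limma). Hipk2 and Hipk3 fell at both times, by 0.77 and 0.85 early and 0.95 and 0.96 late, and their late differences were not called.

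**Figure D4:**
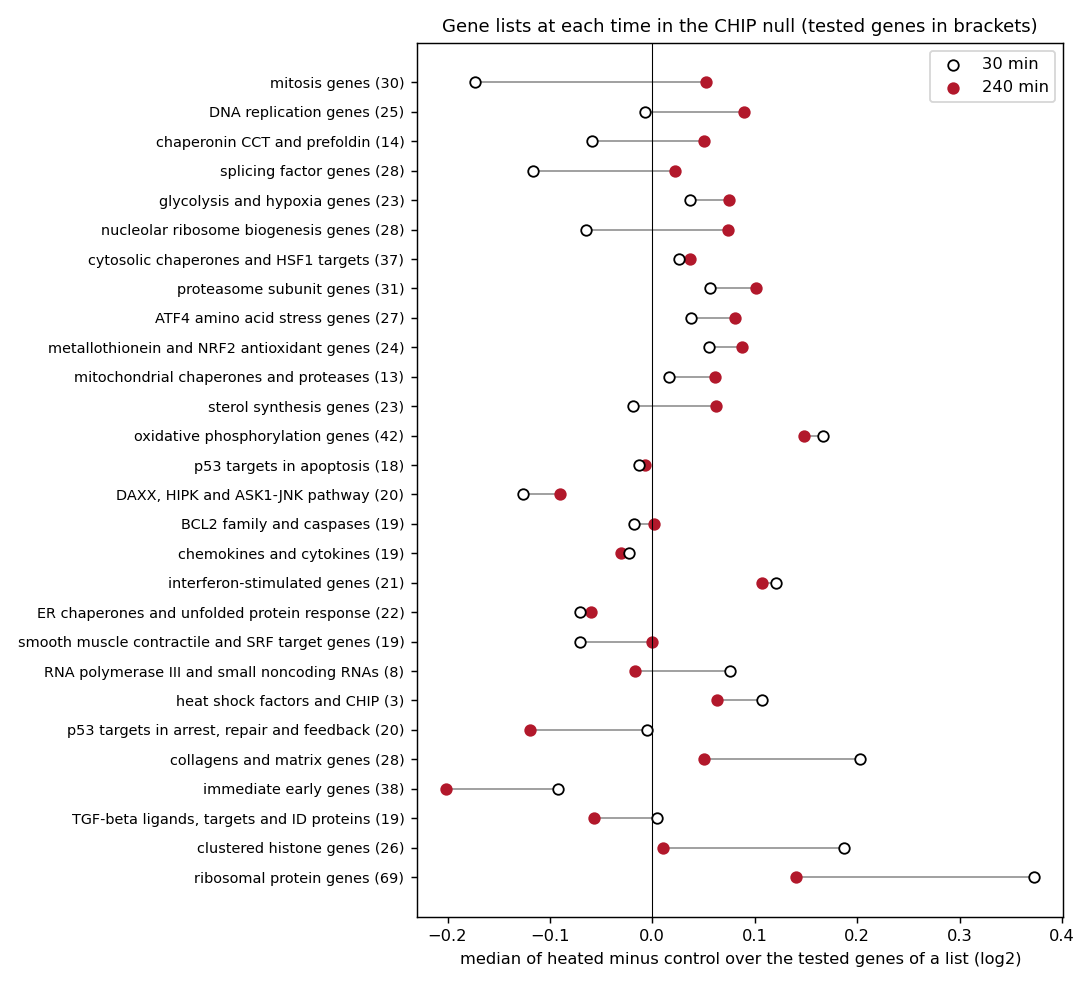
Median heat effect (log2) over the tested genes of each of 28 gene lists at 30 min (open circles) and 240 min (red), ordered by the median late difference, with the number of tested genes in brackets. Mitosis genes went from -0.17 to 0.05, ribosomal protein genes from 0.37 to 0.14, and early response genes from -0.09 to -0.20.

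Of the remaining lists, those of glycolysis, proteasome subunits, BCL2 family and caspases, interferon-stimulated genes, chemokines, metallothionein and NRF2 targets, contractile genes and noncoding RNAs of RNA polymerase III held 0 called genes in limma. Over all 11 lists with 0 calls apart from those of p53, 38 of 202 tested genes had an unadjusted p under 0.05, against 18.1% of all genes. With 2.36% of all genes called, 0 calls in a single list of this size are no result about it. Sterol synthesis held 1 called gene (Stard4), oxidative phosphorylation 1 (Ndufc1, lower by 0.31 on the log2 scale), the TGF-beta list 1 (Inhba), and the ATF4 list 1 in each direction (Nupr1 at 0.42 and Vldlr). Among named genes with further probes, those of BC012020 (0.31), Dnajb4 (0.25), Ccnb1 (0.11 and 0.17), Trp53bp2 (-0.23), Vldlr (-0.14), Ndufc1 (-0.16), Nop16 (0.30), Polr1a (0.09) and Hnrnpa1 (0.17 to 0.25) kept the sign of the late difference without being called. The 5 genes whose levels followed Hspa1a most closely over the 11 arrays on which it had a value were Coq4, Yipf1, Rfx1, Cyp4f16 and Carm1, with Pearson correlations of 0.94, 0.94, 0.94, 0.92 and 0.92. Their late differences lay between 0.07 and 0.28, and none was called.

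Markers of macrophages moved as well. Of 19 on their list 13 were tested, and 2 had a late difference called higher (against 1.07% of all genes) and 0 lower (against 1.29%). At 30 min 6 of the 13 were called higher (against 22.6% of all genes) and 1, Lyz2, lower (against 12.6%). At 240 min 10 were called higher (against 24.4%) and 0 lower (against 14.6%). The early fall of Lyz2 was thus not that of most of these markers. Lyz2, a lysozyme of macrophages, read -2.70, -2.75 and -2.55 in the 30 min controls and -3.64, -3.36 and -3.69 after heat, then -3.87, -3.77 and -3.82 against -3.67, -3.48 and -3.52. It fell early and rose late with no overlap, a late difference of 1.16 (SE 0.12, adjusted p = 1.1e-06, limma), whereas its other probe gave -0.03. Lyz1, a close relative whose sequence a probe may share, had a late difference of 0.43. Over the 13 tested markers the mean level of an array ran from -1.45 to -1.33 in the 30 min controls, -1.39 to -1.29 after heat, -2.03 to -1.94 in the 240 min controls and -1.79 to -1.65 after heat. Itgam, Laptm5, Ptprc, Mrc1, Spi1 and Cd53 were well above background on 0 of the 12 arrays. The labels name no sort. Fewer cells of a type and less RNA per cell cannot be told apart in these cultures, and the part of macrophage RNA in the other results was not tested. Among 15 fibroblast markers 1 was called in each direction, Pdgfrb at 0.35 and Col1a2. The 6 lists of endothelial, epithelial, muscle, neural, erythroid and adipocyte markers held 0 called genes of 56 tested in limma, and 5 with an unadjusted p under 0.05. Over all genes the shares were 2.36% and 18.1%, so 0 calls in lists of this size are no result about them.

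The late difference of the wildtype ran in the same direction for most of these genes. In the wildtype 170 genes were called (1.26%), 100 higher (0.742%) and 70 lower (0.519%), and the 2 contrasts share no array. Of the 318 CHIP null calls 42 were also called in the wildtype (13.2%, and 24.7% of the wildtype calls), 14 higher and 28 lower in both and 0 in opposite directions. The sign was the same for 303 of the 318 (95.3%), against 66% of all genes, and the correlation across the 13480 genes was 0.54 (Pearson; Spearman 0.48), with genes not independent of each other. Among the mitosis genes 10 of 30 were called higher in the wildtype, and Hspa1a was called there with a late difference of 2.89.

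The difference between the genotypes was itself called for 5 genes (0.0371%), all lower in the CHIP null, and 705 had an unadjusted p under 0.05. The differences were -1.64 for Marco (adjusted p = 7.2e-07, limma), -1.24 for Lyz1, -1.10 for Lyz2, -1.10 for Adam8 and -0.75 for Ctss. Of these Marco, Lyz1, Lyz2 and Ctss are on the macrophage list, and Adam8 is a protease of myeloid cells. In the heated CHIP null cells at 30 min Ctss was well above background on 1 of 3 arrays and Lyz1 on 2 of 3. Their early heat effects there thus rest partly on values near background. The other probe of Lyz2 had late differences of -0.03 in the CHIP null and 0.30 in the wildtype, neither called. Marco read 0.56, 0.44 and 0.26 in the wildtype 30 min controls and -1.17, -1.27 and -1.04 after heat, then -2.60, -2.47 and -2.43 against -2.39, -2.32 and -2.26. In the CHIP null it read -2.08, -1.77 and -1.99 against -1.69, -1.69 and -1.71, then -2.65, -2.60 and -2.73 against -2.31, -2.38 and -2.18. The 30 min wildtype controls stood far above the other 21 arrays, while the CHIP null heat effects of Marco were 0.25 and 0.37. The late difference in the CHIP null was 0.12 for Marco and 0.25 for Ctss, neither called, and 0.39 for Adam8, which was called. With the software's own ratios, which leave dim signals undamped by an offset, the CHIP null late difference was 1.77 for Lyz1 and 1.78 for Ctss, both called, and 3 genotype differences were called. The number ranged from 5 to 7 when single arrays were left out.

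**Figure D5:**
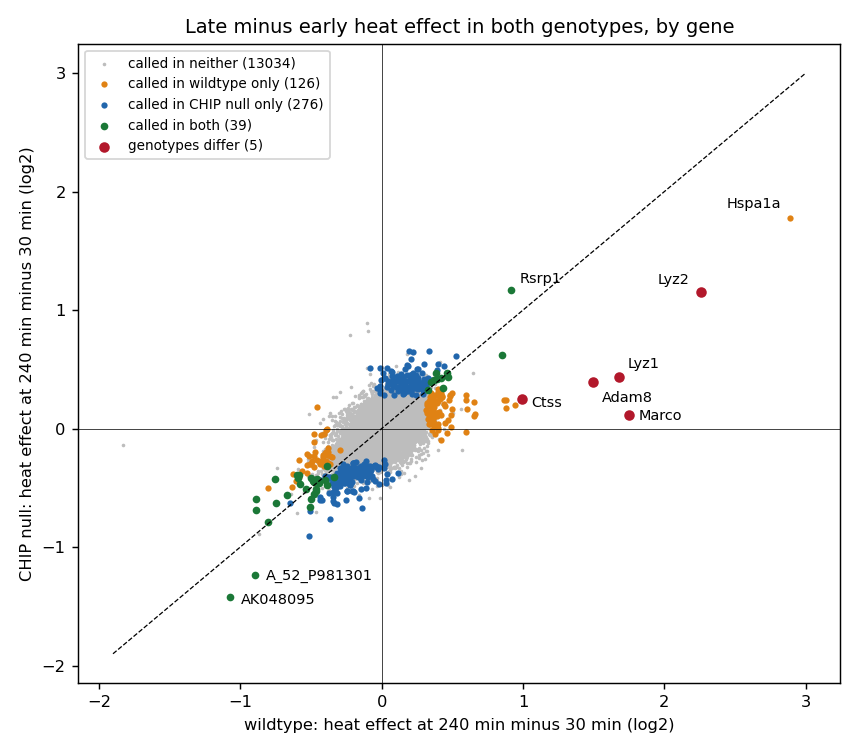
Late difference (heat effect at 240 min minus 30 min, log2) of 13480 genes in the wildtype (x axis) and the CHIP null (y axis), coloured by where it was called; the dashed line marks equal values. The 5 genes whose genotypes differ (red) lie to the right of the line, and the 39 other genes called in both genotypes lie in the upper right or the lower left.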

How the data were processed

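RNA of 24 samples was hybridised to 24 Agilent 2-colour arrays and read out by Feature Extraction 9.1.3.1 of Agilent, per the file headers. The deposited spot and background intensity values are linear and uncorrected, per the file headers; the files also hold the software's dye-normalized log10 ratio, deposited beside them, and flags (other) for background, saturation and outliers. The authors' value table, a score without a stated scale, was found to equal the log10 ratio divided by ln 2 (natural log), with heated columns minus their control mean; for 28139 probes at least 99.254% agreed within 0.001 with the scanner file of the other time label (r at least 0.99965, against at most 0.90036 for the same label), and CHIP null column medians ran from -0.046 to 0.023. Its direction is Cy5 over Cy3.

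Intensities were background-corrected (normexp, offset 50) and normalized by loess within arrays, which hides a general gain or loss of RNA. The offset draws dim ratios towards 0. Control spots and 333 spots flagged as outliers were left out, and 43379 spots gave 41174 probes. A probe without a value on an array is one whose spot there was flagged. Names came from RefSeq genes (GRCm38.p6) by accession (22951), symbol (6659) or synonym (3109); 8455 kept the file's name. Each gene used its brightest probe and was tested where some group of the 8 had Cy5 well above background on its 3 arrays (13480 of 27670; 10 without a value in some group were left out). limma 3.58.1 in R 4.3.3 (statmod 1.5.0) fitted 8 group means to 24 arrays, with Benjamini-Hochberg adjustment at 0.05. Precision is limited by 3 arrays a group. The fit was tested on simulated data. Genes were named by rule: the 12 largest called differences in each direction whose heat effects did not overlap between times, up to 8 with all probes called, called list members up to 6 a list, 7 fixed genes, 6 genotype differences in each direction where called, and the 5 most like Hspa1a. The comparison and the gene lists were chosen with earlier results of these data known. 1 member of the chaperone list is not reported here.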

Additional observations from a re-analysis of the deposited data

Results flagged for a closer look

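The heat effect differed between the labelled times in the CHIP null for 318 genes. The late differences of the genotypes differed for 5 genes, each lower in the CHIP null than in the wildtype: Marco by -1.64, Lyz1 by -1.24, Lyz2 by -1.10, Adam8 by -1.10 and Ctss by -0.75 on the log2 scale. For Marco, Lyz1 and Adam8 the wildtype values were 1.75, 1.68 and 1.49, and for Lyz2 and Ctss 2.26 and 1.0. In the heated CHIP null cells at 30 min Ctss was well above background on 1 of 3 arrays and Lyz1 on 2 of 3.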

How the results depend on the processing

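The count of late differences (318; 144 higher, 174 lower) was 114 (63, 51) with the software's ratios, 8 (2, 6) with median centring, 106 (61, 45) with an offset of 10, 72 (31, 41) with the 12 CHIP null arrays alone, 24 (11, 13) with slide as a block, 209 (94, 115) with slide as a random block and 27 past 1.5-fold. It was 113 (64, 49) with the value table under scanner labels and 113 (49, 64) under its own labels. Leaving out single arrays gave 76 to 840, with 40 to 306 higher and 36 to 534 lower. The 30 min heat count was 2666 with slide as a block, 121 past 1.5-fold and 2810 under the table's labels, and 3571 to 5050 without single arrays. The 240 min count was 2828 with the software's ratios, 2739 with the slide block, 238 past 1.5-fold and 2810 with the table under scanner labels, and 3056 (without heated replicate 3 of that time) to 6144 without single arrays. The wildtype count was 28 with median centring, 102 with offset 10, 102 with both table versions, 20 with the slide block, 34 past 1.5-fold and 87 to 248 without single arrays. The genotype count was 3 with the software's ratios, 2 with median centring, 2 with offset 10, 3 with the stricter background filter, 3 with the slide block, 3 with both table versions and 5 to 7 without single arrays. The cause of these shifts was not tested. With slide as a block the CHIP null heat effects rest on 1 heated array at 30 min and on 1 control at 240 min.

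The ribosomal median was 0.0012 with the software's ratios, -0.0191 with median centring, -0.12 with offset 10, -0.0196 with the table under scanner labels and 0.0196 under its own. Without single arrays the medians ran from -0.27 to -0.20 for ribosomal genes, 0.19 to 0.24 for mitosis, 0.15 to 0.20 for replication, -0.13 to -0.06 for early response genes, 0.03 to 0.08 for chaperones, -0.24 to -0.14 for histones, 0.05 to 0.14 for splicing and -0.11 to -0.04 for collagens. Under the table's own labels they were -0.17 for mitosis, -0.12 for replication, 0.23 for early response genes, -0.105 for chaperones and 0.29 for histones. The table under scanner labels was added after the data were seen; its values under its own labels differ from those by their sign alone. Under its own labels the following 61 named genes turned their sign: Rsrp1 -1.48, Lyz2 -1.44, Rab1a -0.48, Hnrnph2 -0.68, NAP030437-1 -1.91, ENSMUST00000082405 -0.97, BC012020 -0.78, Cep55 -0.98, Mad2l1 -0.70, Vbp1 -0.63, Nemp1 -0.99, AK048095 1.38, A_52_P981301 1.30, Grn 0.57, H1f5 1.31, Plpp3 0.77, MGC73635 0.44, ENSMUST00000006203 0.67, Wwtr1 0.71, Cdkn1c 0.58, Stard4 0.65, Kif5b 0.64, Arid3a 0.18, Kif20a -0.40, Zfp207 -0.38, Pla2g4a -0.36, Zfp36l1 0.61, Vps36 0.39, Zbtb43 0.49, Hsp90aa1 -0.62, Hsph1 -0.35, Dnajb4 -0.48, Cct6a -0.42, Ccn1 0.56, Klf4 0.52, Nr4a1 0.51, Dusp6 0.38, Ccn2 0.26, Ccnb1 -0.23, Nusap1 -0.45, Pola1 -0.54, Trp53bp2 0.57, Rpl39 0.28, Rps24 0.15, Rpl37 0.15, H2ac10 0.28, H2ac15 0.44, Vldlr 0.68, Nupr1 -0.37, Inhba 0.41, Fbln2 0.40, Col1a2 0.0607, Ndufc1 0.37, Nop16 -0.33, Polr1a -0.25, Hnrnpm -0.52, Hnrnpa1 -0.35, Pdgfrb -0.36, Lyz1 -1.77, Adam8 -0.57, Ctss -1.78. These 61 were called in the main fit, in the table, or in both, and among them Ctss was not called in the main fit. The 12 other named genes that the table could test were called in neither. They turned their sign too, with Hspa1a at -2.625 and Rmrp at -0.60. The other alternatives reversed 0 named genes that were called in either fit.

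Same-numbered arrays correlated at -0.106, 0.199 and -0.0507 in their deviations at 30 min and 0.133, 0.171 and -0.229 at 240 min. At each time 1 of 3 correlated best with its own number. With 3 arrays a group these values cannot tell whether replicate numbers pair samples. With a replicate block 323 genes were called, and 244 of 317 calls that could be fitted were still called.

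Dim probes limit the result: 27 of the 3370 dimmest genes were called.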
